A study of Mus musculus with 31 samples.

Results

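Cbln1, Fabp3, Nupr1 and Cnmd are 4 mouse genes that were picked because their signal was high in XX fetal gonads whose somatic cells had lost Ctnnb1, the gene for β-catenin. They were picked from these same arrays, so their rise in XX gonads is a description here and carries no test. Each gene was read from probe sets annotated to that gene alone, and where there were several, the brightest on average was used. They are 4 of 18193 genes with a probe set of their own, and all 4 were among the 11777 genes whose signal was above the array's median on at least 3 arrays. Cnmd passed that filter only through the groups where it was high: it was above the array median on 15 of 31 arrays and on 0 arrays of XY Sox9KO, XX Sox9KO and XX control gonads. Nupr1 was above the median on 20 arrays, Cbln1 on 27 and Fabp3 on 31.

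The arrays held RNA from single pairs of whole gonads at embryonic day 14.5, freed from the mesonephros, with 40 ng of total RNA amplified for each array. There were 4 genotypes in each sex. Double knockout (DKO) gonads were Sf1-cre+/Tg; Ctnnb1f/f; Sox9f/f, Ctnnb1KO gonads were Sf1-cre+/Tg; Ctnnb1f/f; Sox9+/f, Sox9KO gonads were Sf1-cre+/Tg; Ctnnb1+/f; Sox9f/f, and control gonads were Sf1-cre+/Tg; Ctnnb1+/f; Sox9+/f. Every gonad, controls included, thus carried the Cre transgene and at least 1 floxed allele of both loci. Each group had 4 arrays, except XY DKO with 3. The Sf1-cre transgene is active in somatic cells of the gonad, so germ cells, blood and other cells of the whole organ were not its targets.

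In the early mouse gonad, R-spondin and WNT signals stabilise β-catenin and favour the ovary, while SRY switches on SOX9, which drives Sertoli cell formation and the testis. Cells that lack β-catenin cannot carry the canonical WNT response, and an XX gonad without it loses ovarian genes such as Fst, which encodes follistatin. The 4 genes have unrelated products. Cbln1 encodes cerebellin 1, a secreted protein of the C1q family that joins neurexins to glutamate receptor delta proteins at synapses. Fabp3 encodes the heart-type fatty acid binding protein, which carries long-chain fatty acids inside muscle and other cells. Nupr1 encodes a small nuclear protein induced by cell stress, and Cnmd encodes chondromodulin, a membrane glycoprotein of cartilage that inhibits blood vessel growth.

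The sequences upstream of the genes are shown because the 4 rise together in XX gonads and their promoters can be compared by eye. RefSeq windows on GRCm38.p6 were at hand for Fabp3, Nupr1 and Cnmd, and Cbln1 is named only. Each is the 250 bases before the annotated start, 5′ to 3′ on the gene's strand, with motif matches in capitals. Fabp3 lies at chr4:130308488-130308737 on the plus strand, Nupr1 at chr7:126625471-126625720 on the minus strand and Cnmd at chr14:79662184-79662433 on the minus strand.
Fabp3: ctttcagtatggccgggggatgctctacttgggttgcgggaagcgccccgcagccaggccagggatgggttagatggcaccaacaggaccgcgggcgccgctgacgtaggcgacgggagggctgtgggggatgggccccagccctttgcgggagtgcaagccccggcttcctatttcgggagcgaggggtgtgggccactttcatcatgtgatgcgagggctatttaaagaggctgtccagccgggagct
Nupr1: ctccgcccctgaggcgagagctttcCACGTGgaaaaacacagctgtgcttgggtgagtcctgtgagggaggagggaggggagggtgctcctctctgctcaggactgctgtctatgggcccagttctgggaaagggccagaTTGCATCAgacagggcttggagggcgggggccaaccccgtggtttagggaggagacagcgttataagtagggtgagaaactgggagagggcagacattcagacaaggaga
Cnmd: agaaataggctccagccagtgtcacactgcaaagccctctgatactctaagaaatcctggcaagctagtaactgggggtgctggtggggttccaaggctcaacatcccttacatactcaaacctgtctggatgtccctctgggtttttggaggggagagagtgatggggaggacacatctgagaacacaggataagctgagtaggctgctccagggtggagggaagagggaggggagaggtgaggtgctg

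The 3 windows have little in common. The Fabp3 window was 64.8% G and C with 17 CpG pairs, the Nupr1 window 59.2% with 6, and the Cnmd window 54.0% with 0, beside a median of 52.4% and 6 over 32851 windows of the same length. The motifs were searched on both strands and were chosen with these sequences in view. CACGTG, an E-box, stood 225 to 220 bases before the Nupr1 start and occurs in 6.02% of all windows. TTGCATCA, the reverse complement of the ATF and C/EBP composite letters TGATGCAA, stood 110 to 103 bases before that start and occurs on either strand in 0.791% of all windows. The letters for TCF and LEF factors (CTTTGAA or CTTTGAT or CTTTGTA or CTTTGTT, in 14.8% of windows), for SOX factors (AACAAT or AACAAAG, 13.8%), for SF1 (AAGGTCA, 4.08%), for GATA factors (AGATAA, 9.99%) and the TATA letters TATAAA (12.4%) were in none of the 3 windows. The SOX letters AACAAAG read on the other strand are the TCF and LEF letters CTTTGTT, so these searches overlap.

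Values are MAS5 signals on a linear scale, and differences were fitted on log2(signal + 16) with limma over all 31 arrays, which understates changes of low signals. Median signal per array was 120.6 to 168.8. Sox9 signals were 8.6 to 34.9 in XY DKO and 7.1 to 41.7 in XY Sox9KO gonads, against 839.7 to 1024.9 in XY control, so the Sox9 labels held in XY gonads. In XX gonads Sox9 was low throughout, with group means of 23.5 in DKO and 119.8 in control. The Ctnnb1 probe set gave group means of 12319.2 to 13816.1 in all 8 groups, and where it lies relative to the floxed exons is not known here, so it checks no label. Fst averaged 237.4 in XX DKO and 222.5 in XX Ctnnb1KO gonads, against 3141.7 in XX control. One array labelled XX Ctnnb1KO, replicate 4, had an Xist signal of 51.1 and no Y-linked signal, so it goes against its label as an XX gonad. For all 4 genes that array was neither the highest nor the lowest of its group, and values without it follow. In whole gonads, fewer cells of a type and less RNA per cell cannot be told apart.

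In XX gonads all 4 genes were several-fold higher wherever Ctnnb1 was deleted, with or without Sox9. Cbln1 signals were 1619.2, 888.8, 852.2 and 813.5 in XX DKO and 951.0, 858.7, 768.1 and 886.5 in XX Ctnnb1KO gonads. They were 175.0, 101.8, 170.7 and 61.3 in XX Sox9KO and 115.6, 190.5, 182.0 and 217.4 in XX control gonads. The Ctnnb1-deleted arrays all lay above those that kept Ctnnb1.

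Fabp3 signals were 2537.2, 3083.5, 2012.7 and 2366.9 in XX DKO and 1958.1, 2797.3, 2000.9 and 2156.8 in XX Ctnnb1KO gonads. They were 603.5, 559.3, 655.8 and 452.0 in XX Sox9KO and 377.4, 439.8, 725.3 and 626.8 in XX control gonads. Again no array with the deletion reached down to one without it.

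Nupr1 spread more within the deleted groups. Its signals were 840.6, 1656.6, 516.8 and 411.7 in XX DKO and 301.9, 1226.2, 451.7 and 382.6 in XX Ctnnb1KO gonads. They were 133.3, 78.0, 141.6 and 111.6 in XX Sox9KO and 150.9, 90.1, 161.8 and 134.9 in XX control gonads. Replicate 2 was the highest array of both deleted groups.

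Cnmd signals were 272.6, 340.1, 186.1 and 130.4 in XX DKO and 149.9, 422.2, 149.0 and 150.8 in XX Ctnnb1KO gonads. They were 26.1, 25.7, 5.5 and 3.7 in XX Sox9KO and 26.9, 39.5, 6.7 and 26.1 in XX control gonads. Replicate 2 stood highest here too, and the groups did not overlap. The same 2 arrays were also highest for Fabp3 and had the highest summed fetal Leydig cell markers of their groups, 7970.5 in XX DKO and 8766.6 in XX Ctnnb1KO, and the lowest summed erythroid markers, 11957.2 and 9941.1. They also had the lowest summed canonical WNT targets, 5141.7 in XX DKO and 5169.5 in XX Ctnnb1KO, and the lowest summed pregranulosa markers, 16094.5 and 15840. The part of these in the spread of the 4 genes was not tested.

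As a description, the log2 difference of XX DKO over XX control was 2.43 for Cbln1, 2.20 for Fabp3, 2.36 for Nupr1 and 2.60 for Cnmd, in a comparison where 7.29% of genes were called higher. XX DKO over XX Sox9KO gave 2.92, 2.10, 2.54 and 3.00 in the same order of genes, where 7.36% of genes were called higher. XX Ctnnb1KO over XX control gave 2.22, 2.04, 1.82 and 2.44, where 4.81% of genes were called higher, and 2.21, 2.05, 1.95 and 2.56 without replicate 4 of XX Ctnnb1KO. These comparisons share control or DKO arrays and chose the genes. Arrays lay wholly higher for 8.6% of genes in XX DKO against XX control, for 8.66% in XX DKO against XX Sox9KO and for 6.22% in XX Ctnnb1KO against XX control. By log2 difference, the genes held places 9 (Cnmd), 12 (Cbln1), 16 (Fabp3) and 24 (Nupr1) among the 421 called rises of XX Ctnnb1KO over XX control whose arrays did not overlap and whose mean lay above the array median. For Cnmd that mean leans on replicate 2 (422.2), the only 1 of 4 XX Ctnnb1KO arrays above its own median.

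**Figure D1:**
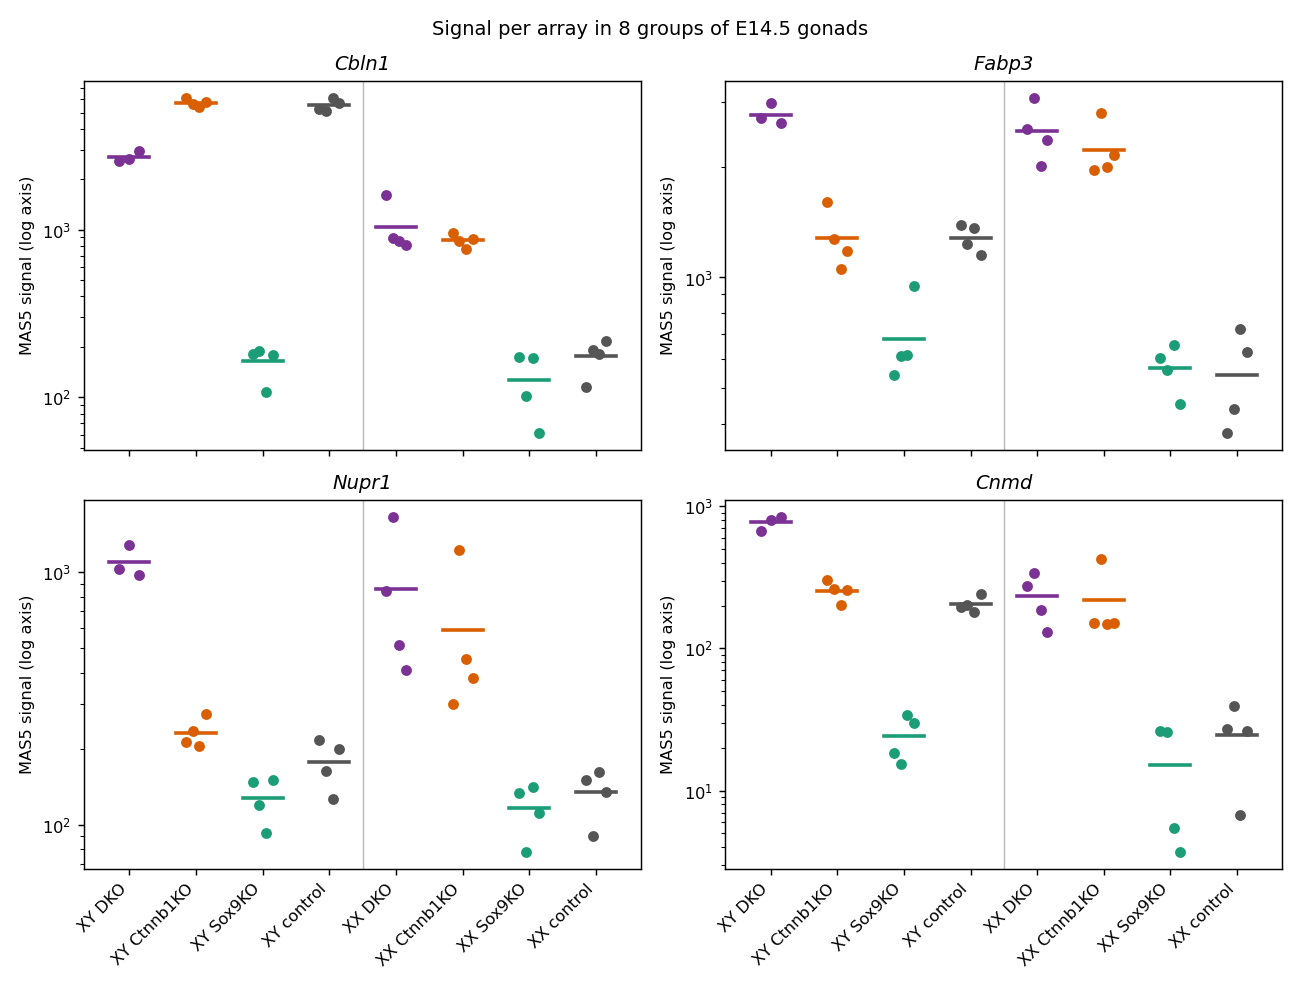
MAS5 signal per array (dots, log axis) and group mean (bars) of Cbln1, Fabp3, Nupr1 and Cnmd in the 8 groups, XY left and XX right. All 4 genes are low in XY Sox9KO, XX Sox9KO and XX control and high in XY DKO, XX DKO and XX Ctnnb1KO gonads, while XY control and XY Ctnnb1KO gonads are highest for Cbln1, intermediate for Fabp3, level with XX DKO and XX Ctnnb1KO for Cnmd, and low for Nupr1.

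Cbln1, Cnmd and Fabp3 were also testis genes, and Nupr1 was not called as one. Cbln1 had signals of 5261.1, 5134.9, 6126.5 and 5684.7 in XY control gonads, and the XX control arrays above peaked at 217.4. Its mean was 5551.8 ± 449.6 in XY control and 176.4 ± 43.2 in XX control gonads (SD, n = 4 each). The difference was 29.5-fold, or 4.88 ± 0.22 on the log2 scale (SE; 95% interval 4.44 to 5.33; limma adjusted p = 1.84e-17). In that comparison 18% of genes were called higher and 16.6% had XY control arrays wholly above XX control.

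Cnmd had signals of 195.4, 203.0, 180.4 and 242.1 in XY control gonads, all above the XX control arrays, and averaged 205.2 ± 26.3 against 24.8 ± 13.5 (SD, n = 4 each). It was 2.50 ± 0.31 higher on the log2 scale (limma adjusted p = 1.05e-07). Because Cnmd entered the test only through its high groups, XY control among them, the fit was repeated on all named genes with no filter, where the limma adjusted p was 1.63e-07. Since its XX control signals are near the pseudocount, the size of that difference moved with it, to 3.22 with a pseudocount of 1 and 1.61 with one of 64.

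Fabp3 had signals of 1386.4, 1229.8, 1366.1 and 1154.0 in XY control gonads, averaging 1284.1 ± 111.2 against 542.3 ± 161.6 in XX control (SD, n = 4 each). It was 2.40-fold higher, a log2 difference of 1.26 ± 0.18 (95% interval 0.90 to 1.62; limma adjusted p = 8.17e-07), and the arrays did not overlap. Its testis level lay below every XX array that lacked Ctnnb1, the lowest of which read 1958.1.

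Nupr1 had signals of 216.4, 163.8, 126.7 and 199.7 in XY control gonads, which overlapped the XX control arrays. Its mean was 176.6 ± 39.9 in XY control and 134.4 ± 31.6 in XX control gonads (SD, n = 4 each), a log2 difference of 0.36 ± 0.32 that was not called (95% interval -0.30 to 1.02; limma adjusted p = 0.409).

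XX control arrays also took part in choosing the genes, so the testis was set against XX Sox9KO ovaries as well. Those arrays are the low side of XX DKO against XX Sox9KO, which also chose the genes, so low values there favour a testis call and this repeat is not independent of the choice. In that comparison, where 17% of genes were called higher, Cbln1 was 5.37 ± 0.22 higher in XY control gonads (limma adjusted p = 1.67e-18). Cnmd was 2.91 ± 0.31 higher (5.74e-09, and 9.05e-09 with no filter on low signal) and Fabp3 1.16 ± 0.18 higher (3.2e-06). Nupr1 again did not pass, at 0.55 ± 0.32 (95% interval -0.12 to 1.21; limma adjusted p = 0.194). XX Sox9KO and XX control ovaries gave the same 3 calls.

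XY gonads that lost Sox9 alone fell to the ovary level for the 3 testis genes. Cbln1 read 180.3, 189.8, 107.4 and 178.2 in XY Sox9KO gonads, a log2 difference from XY control of -4.98 ± 0.22 (limma adjusted p = 1.25e-17). Cnmd read 18.4, 15.4, 34.0 and 29.8 in XY Sox9KO gonads, a log2 difference from XY control of -2.47 ± 0.31 (limma adjusted p = 1.3e-07, and 2e-07 with no filter on low signal). Fabp3 read 543.3, 611.7, 616.7 and 948.1 in XY Sox9KO gonads, a log2 difference of -0.93 ± 0.18 (limma adjusted p = 8.45e-05). None of the 3 overlapped XY control, in a comparison where 16% of genes were called lower and 14.5% had wholly lower arrays. It shares no array with the comparisons that chose the genes in XX gonads. Its XY Sox9KO arrays are, though, the low side of XY DKO against XY Sox9KO. If that comparison had a part in the choice, low values there favour these falls, and the p-values are not independent of it. Summed Sertoli cell markers were 17126.6 to 20679.7 in XY Sox9KO against 51812.5 to 59142.3 in XY control gonads, and fetal Leydig cell markers 6897.2 to 7860 against 47445.5 to 53834.1. Their part in these falls was not tested.

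Nupr1 read 147.0, 120.0, 92.8 and 150.9 in XY Sox9KO gonads and overlapped XY control. Its log2 difference was -0.42 ± 0.32 (95% interval -1.08 to 0.24; limma adjusted p = 0.324). A second Nupr1 probe set gave -0.81 in the same comparison and was called lower (limma adjusted p = 0.0267), so the 2 probe sets disagree on that call.

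XY Sox9KO and XX Sox9KO gonads were not told apart by any of the 4 genes. The log2 differences were 0.39 for Cbln1 (95% interval -0.05 to 0.84), 0.43 for Cnmd (-0.20 to 1.06), 0.23 for Fabp3 (-0.12 to 0.59) and 0.13 for Nupr1 (-0.54 to 0.79). Of all genes, 0.11% were called in that comparison. Deleting Sox9 in XX gonads called 0% of genes with limma, and 537 had an unadjusted p under 0.05, beside 589 that no difference at all would give. The 4 genes differed there by -0.49 (Cbln1), -0.40 (Cnmd), 0.10 (Fabp3) and -0.19 (Nupr1) on the log2 scale. Cbln1 had the lowest unadjusted p of the 4, 0.0334, with a limma adjusted p of 0.986.

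**Figure D2:**
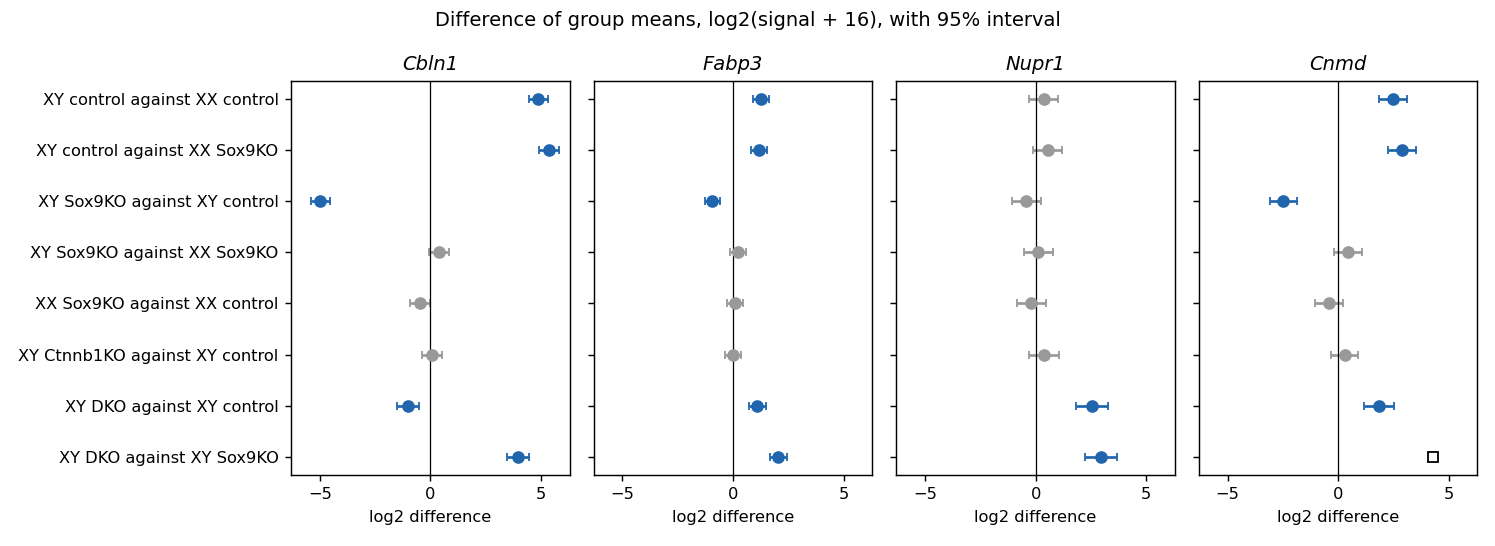
Difference of group means on log2(signal + 16) for the 4 genes (columns) in 8 comparisons (first-named group minus second), with 95% intervals. Blue points passed an adjusted p of 0.05 and grey points did not. The open square (Cnmd, XY DKO against XY Sox9KO) has no test or interval because that comparison may have had a part in choosing the gene. Cnmd in XY DKO against XY control rests on the same XY DKO arrays and is also a description, whatever its colour. Cbln1 runs from -4.98 for XY Sox9KO against XY control to 5.37 for XY control against XX Sox9KO, and all 4 intervals for XY Ctnnb1KO against XY control include 0.

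Losing Ctnnb1 in a testis that kept Sox9 moved none of the 4 genes past the threshold. Cbln1 read 6131.0, 5628.7, 5395.3 and 5816.6 in XY Ctnnb1KO gonads, Fabp3 1609.4, 1273.4, 1052.8 and 1178.0, Nupr1 211.9, 235.2, 204.1 and 275.2, and Cnmd 302.1, 259.8, 202.0 and 257.2. Every one of these sets overlapped XY control. The log2 differences from XY control were 0.05 for Cbln1 (95% interval -0.40 to 0.50), -0.02 for Fabp3 (-0.38 to 0.34), 0.38 for Nupr1 (-0.28 to 1.04) and 0.29 for Cnmd (-0.34 to 0.92). Only 0.0679% of genes were called in that comparison, and 473 had an unadjusted p under 0.05, below the 589 that no difference would give.

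Where XY gonads lacked both genes, all 4 stood far above XY Sox9KO gonads. By log2 difference Cnmd held place 5, Cbln1 10, Nupr1 18 and Fabp3 62 among the 1051 called rises of that comparison whose arrays did not overlap and whose mean lay above the array median. If it had a part in the choice of the genes, its p-values and those of the interaction below are not independent of the choice. Cbln1 read 2570.0, 2645.7 and 2970.8 in XY DKO gonads and averaged 2728.8 ± 212.9 there (SD, n = 3), against 163.9 ± 38.0 in XY Sox9KO gonads (SD, n = 4). It was 15.5-fold higher, a log2 difference of 3.96 ± 0.24 (limma adjusted p = 8.97e-14). The lowest XY DKO array lay above every XX array.

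Fabp3 read 2715.0, 2983.9 and 2628.2 in XY DKO gonads and averaged 2775.7 ± 185.4 there (SD, n = 3), against 680.0 ± 181.9 in XY Sox9KO gonads (SD, n = 4). It was 4.10-fold higher, a log2 difference of 2.03 ± 0.19 (limma adjusted p = 1.42e-09). Nupr1 read 1026.7, 1281.8 and 973.7 in XY DKO gonads, averaging 1094.1 ± 164.7 there (SD, n = 3), against 127.7 ± 27.0 in XY Sox9KO gonads (SD, n = 4). It was 7.78-fold higher, a log2 difference of 2.96 ± 0.35 (limma adjusted p = 1.23e-07). None of the arrays overlapped for these genes, and 11.1% of all genes were called higher and 12.9% had wholly higher arrays. Cnmd read 665.9, 804.5 and 842.1 in XY DKO gonads, 19.7-fold above XY Sox9KO on the log2(signal + 16) scale. Its XY Sox9KO signals are near the pseudocount, so the size moved with it. The log2 difference was 4.30, and 4.99 with a pseudocount of 1 and 3.24 with one of 64. Cnmd was among the largest rises of that comparison, which may have had a part in choosing it, so its value is a description.

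The effect of Ctnnb1 loss in XY gonads was compared between gonads without and with Sox9 by an interaction. The difference between the 2 effects, XY DKO minus XY Sox9KO less XY Ctnnb1KO minus XY control, was 3.91 ± 0.32 for Cbln1 (limma adjusted p = 4.86e-10) and 2.58 ± 0.48 for Nupr1 (limma adjusted p = 0.000327). For Fabp3 it was 2.06 ± 0.26 (limma adjusted p = 1.41e-06). Of all genes, 5.27% were called higher and 4.47% lower in this interaction. For Cnmd the same difference was 4.01, given as a description for the reason above. It was 4.68 with a pseudocount of 1 and 3.00 with one of 64.

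**Figure D3:**
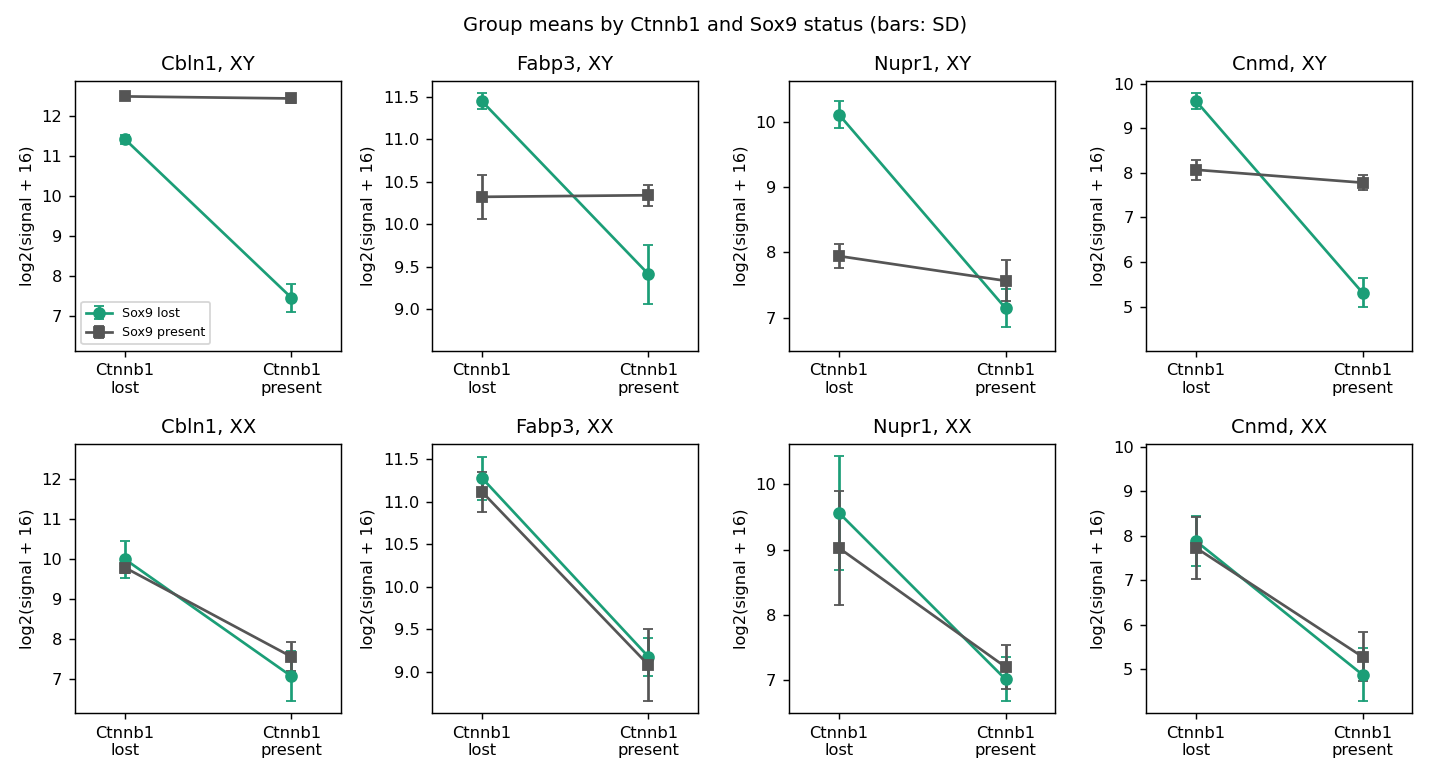
Group means of log2(signal + 16) with SD bars, by Ctnnb1 status (x axis) and Sox9 status (line), in XY gonads above and XX gonads below; "present" means 1 intact and 1 floxed allele. In XY gonads the Sox9-present line is nearly flat for each gene and the Sox9-lost line falls steeply toward Ctnnb1 present, whereas in XX gonads both lines fall together.

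Set against XY control gonads, XY DKO gonads split the 4 genes. Cbln1 was lower in XY DKO than in XY control, 0.49-fold or -1.02 ± 0.24 on the log2 scale (limma adjusted p = 0.00241), while 7.61% of genes were called lower. Nupr1 was 2.54 ± 0.35 higher (limma adjusted p = 2.54e-06) and Fabp3 1.10 ± 0.19 higher (7.12e-05), while 9.62% of genes were called higher. Cnmd was 1.83 higher, given as a description because its choice may rest on the same XY DKO arrays. In each case the arrays of the 2 groups did not overlap, which held upward for 14.5% of all genes and downward for 11%. Thus Cbln1 stopped short of its XY control level, and Fabp3, Cnmd and Nupr1 went past theirs. The XY DKO arrays are the high side of XY DKO against XY Sox9KO. If that comparison had a part in choosing the genes, high values there favour these rises, and the p-values are not independent of the choice.

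XY DKO gonads were also set against XY Ctnnb1KO gonads, a comparison chosen after the values were seen. The calls were the same, with Cbln1 at -1.07 ± 0.24 (limma adjusted p = 0.00164), Fabp3 at 1.12 ± 0.19 (6.09e-05) and Nupr1 at 2.16 ± 0.35 (3.54e-05). Cnmd was at 1.54, again given as a description. The same XY DKO arrays enter here, so the same dependence on the choice applies. In that comparison 7.66% of genes were called higher and 6.33% lower.

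Ordered by mean log2(signal + 16), Cbln1 was highest in XY Ctnnb1KO and XY control gonads, which overlapped, then in XY DKO, then in XX DKO and XX Ctnnb1KO, which overlapped, and lowest in XX control, XY Sox9KO and XX Sox9KO, which overlapped in turn. Fabp3 was highest in XY DKO, XX DKO and XX Ctnnb1KO, followed by XY control and XY Ctnnb1KO, with XY Sox9KO, XX Sox9KO and XX control at the bottom, and neighbours within each of these sets overlapped. Nupr1 had the same top set of XY DKO, XX DKO and XX Ctnnb1KO, and the other 5 groups formed a low set whose neighbours overlapped. Cnmd was highest in XY DKO alone, then in XY Ctnnb1KO, XX DKO, XY control and XX Ctnnb1KO, whose neighbours overlapped, and lowest in XY Sox9KO, XX control and XX Sox9KO. Fabp3, Nupr1 and Cnmd thus had their highest mean in XY DKO gonads, and Cbln1 in testes with Sox9.

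Over the 8 group means of log2(signal + 16), Pearson's r was 0.943 for Fabp3 with Nupr1, 0.919 for Fabp3 with Cnmd and 0.866 for Cbln1 with Cnmd, and lowest for Cbln1 with Nupr1 at 0.473. After subtraction of the group means, r over the 31 arrays was 0.481 for Fabp3 with Nupr1, 0.465 for Nupr1 with Cnmd and 0.145 for Cbln1 with Nupr1. These describe the same arrays that chose the genes and carry no test.

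Other probe sets of the genes were compared where they exist. The 2 further Cbln1 probe sets gave 5.35 and 4.79 for XY control over XX control and 4.25 and 3.93 for XY DKO over XY Sox9KO on the log2 scale, with the same calls throughout. The second Fabp3 probe set stayed dim, with group means of 71.5 to 120.4, and did not pass the filter, so Fabp3 rests on 1 probe set. Cnmd has 1 probe set.

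Most of the wider cerebellin group was too dim to test. Of 8 other cerebellin and receptor genes listed, 3 passed the filter. All 3 were called higher in the testis, XY control against XX control, where 18% of all genes were called higher. Their median log2 difference was 1.95 against -0.02 for all genes. Of these 3, 2 were lower in XY Sox9KO than in XY control, beside 16% of all genes. In XY DKO against XY Sox9KO 2 were higher, beside 11.1% of all genes. In the interaction 1 was called higher, beside 5.27%. Cbln4, a second secreted cerebellin, had a mean of 563.7 in XY control and 62.3 in XX control gonads, a log2 difference of 2.90 ± 0.18 (limma adjusted p = 6.33e-14). Cbln4 was 2.68 ± 0.20 higher in XY DKO than in XY Sox9KO gonads (limma adjusted p = 1.39e-11), with an interaction of 3.04 ± 0.27 (limma adjusted p = 2.3e-09). Cbln2 was 1.95 ± 0.26 higher in the testis (limma adjusted p = 3.47e-07) and 0.89 ± 0.28 higher in XY DKO than in XY Sox9KO gonads (limma adjusted p = 0.0203), and its interaction of 0.59 was not called. Nrxn3, a presynaptic partner of cerebellins, was 0.82 higher in the testis (limma adjusted p = 0.0299). All 3 were lower in XY DKO than in XY control gonads, where 7.61% of all genes were called lower.

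Genes of the fatty acid binding family were called in both directions. Of 12 others listed, 6 passed the filter, and in XY control against XX control 1 was higher and 2 were lower, with a median log2 difference of -0.60, where 18% of all genes were called higher and 19.8% lower. Fabp5, the epidermal-type protein, was 0.69 ± 0.17 higher in the testis (limma adjusted p = 0.00162) and 0.69 ± 0.18 higher in XY DKO than in XY Sox9KO gonads (limma adjusted p = 0.00626). Crabp1, which binds retinoic acid, had means of 346.7 in XY control and 1495.7 in XX control gonads, and Fabp4, the adipocyte-type protein, 56.1 and 248.0. Crabp1 was lower in XY DKO than in XY Sox9KO gonads as well, at 983.4 against 1941.9 (limma adjusted p = 0.000194). Of 20 genes of fatty acid uptake and oxidation, 17 passed the filter. In XY control against XX control 3 were higher and 5 lower, and in XY DKO against XY Sox9KO 3 were higher and 4 lower. Of all genes, 11.1% were called higher and 10.8% lower in XY DKO against XY Sox9KO, and the shares for the first comparison stand above.

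Some fatty acid genes were called in the direction of Fabp3. Cd36, a fatty acid transporter, was 0.60 ± 0.17 higher in the testis than in the XX control ovary (limma adjusted p = 0.00582) and 1.21 ± 0.18 higher in XY DKO than in XY Sox9KO gonads (limma adjusted p = 9.03e-06). Ppargc1a, a coactivator of mitochondrial genes, was 0.92 ± 0.17 higher in the testis (limma adjusted p = 6.58e-05) and 0.72 ± 0.19 higher in XY DKO than in XY Sox9KO gonads (limma adjusted p = 0.00508). Pparg, a nuclear receptor of fat cells, had means of 11.7 in XY control and 194.2 in XX control gonads and was lower in the testis (limma adjusted p = 0.000995). Slc27a2, an acyl-CoA synthetase, and Acadvl, which oxidises very long chains, were lower in the testis as well, at -1.16 and -0.54 on the log2 scale.

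The stress genes around Nupr1 were called about as often as all genes in XY DKO against XY Sox9KO. Of 15 others listed, 12 passed the filter, and 1 was higher and 2 were lower, beside 11.1% and 10.8% of all genes. In the interaction 0 of the 12 were called. Atf4, a transcription factor of the integrated stress response that induces Nupr1, averaged 3323.6 in XY DKO and 2309.0 in XY Sox9KO gonads, a log2 difference of 0.49 (limma adjusted p = 0.0722). Ddit3 differed by 0.19 (limma adjusted p = 0.46) and Trib3 by -0.02 (limma adjusted p = 0.98) in the same comparison. Cebpb, whose protein binds C/EBP sites, was 0.35 ± 0.11 higher in XY DKO than in XY Sox9KO gonads (limma adjusted p = 0.0267). Asns, which makes asparagine, went the other way at -0.44 ± 0.15 (limma adjusted p = 0.0292).

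Cartilage genes were mostly too dim to test beside Cnmd. Of 18 others listed, 7 passed the filter, and in XY DKO against XY Sox9KO 1 was higher and 1 was lower, beside 11.1% and 10.8% of all genes. Sox8, a relative of Sox9, was 0.82 ± 0.19 higher (limma adjusted p = 0.00201) and Sox5 was lower, at -0.43 ± 0.14 (limma adjusted p = 0.0279). Acan, which encodes the cartilage proteoglycan aggrecan, passed the filter and was not called there. Col9a1, Matn1 and Comp, cartilage matrix genes used here as chondrocyte markers, did not pass the filter, and their highest signals on any array were 81.7, 34.4 and 64.1. Summed chondrocyte markers were 408.4 to 532.1 in XY DKO and 357 to 523.2 in XY Sox9KO gonads, which overlapped.

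Markers of other cell types were higher in some groups where the 4 genes were high. Of 10 striated muscle markers that passed the filter, 7 were higher in XY DKO than in XY Sox9KO gonads and 0 lower, beside 11.1% and 10.8% of all genes, and their summed signal was 7466.5 to 10052 in XY DKO against 3854.5 to 4622.4 in XY Sox9KO. Myl1, a myosin light chain of fast muscle, averaged 1079.6 in XY DKO, 154.6 in XY Sox9KO, 1189.9 in XX DKO, 1088 in XX Ctnnb1KO and 145.1 in XX control gonads. Acta1, Ckm, Mb, Myog and Myod1 of the same list did not pass the filter. Summed muscle markers also stood at 5611.5 to 8377.7 in XX DKO and 5528.5 to 6742.6 in XX Ctnnb1KO, against 3572.9 to 4691.9 in XX control gonads. In XY control against XX control, where Fabp3 was higher, 0 of the 10 muscle markers were higher and 3 were lower, beside 18% and 19.8% of all genes. Fabp3 is a muscle gene in the adult, and the part of muscle cells in its values was not tested.

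Macrophage and leukocyte markers were higher in some of these groups. Of 8 that passed the filter, 6 were higher in XY DKO than in XY Sox9KO gonads and 0 lower, beside 11.1% and 10.8% of all genes. Their summed signal was 6688.4 to 8235.5 in XY DKO against 3682.5 to 5019.3 in XY Sox9KO, and 6756.1 to 8147.8 in XX DKO and 5074.1 to 6828.1 in XX Ctnnb1KO against 2542.1 to 5452.1 in XX control gonads. The sum was 3598.6 to 7312.5 in XY Ctnnb1KO and 3106.4 to 4121 in XY control gonads. In XY control against XX control 0 of the 8 markers were higher and 1 was lower, beside 18% and 19.8% of all genes. The part of these cells in the values of the 4 genes was not tested. Sertoli cell markers were higher for 7 and lower for 2 of 17 in XY DKO against XY Sox9KO gonads, and fetal Leydig cell markers higher for 6 of 7. In the same comparison interstitial cell markers were higher for 5 of 6 and adrenal cortex markers for 3 of 3. Pregranulosa cell and ovary markers were lower for 12 and higher for 1 of 14. Canonical WNT targets were lower for 6 and higher for 1 of 9. The shares of all genes for that comparison, 11.1% higher and 10.8% lower, apply here too. Dhh, which Sertoli cells secrete, averaged 435.8 in XY DKO, 36.3 in XY Sox9KO and 2247.7 in XY control gonads.

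**Figure D4:**
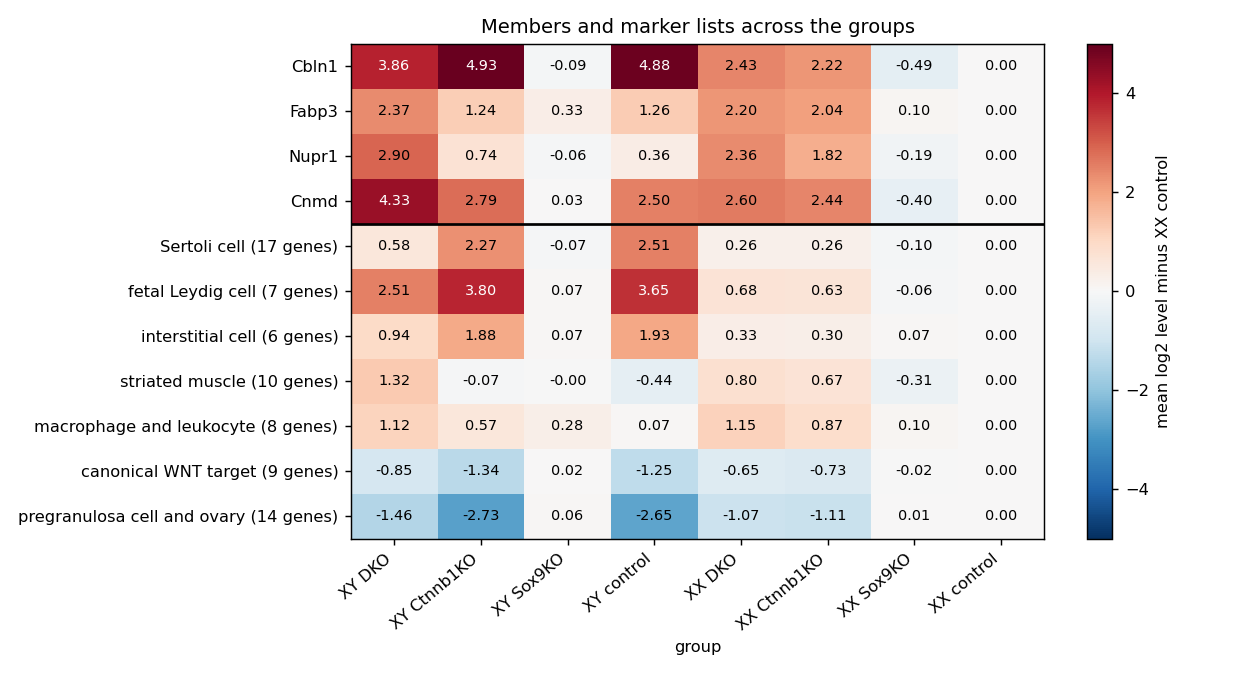
Mean log2(signal + 16) relative to XX control for the 4 genes (top rows) and for marker lists (lower rows, mean over the genes that passed the filter) in the 8 groups. Fabp3 and Nupr1 share their high groups (XY DKO, XX DKO and XX Ctnnb1KO) with the striated muscle and macrophage lists, and Cbln1 peaks with the Sertoli and fetal Leydig lists in XY control and XY Ctnnb1KO gonads.

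The genes most like each member were taken as the 5 with the highest Pearson's r on log2(signal + 16) over the 31 arrays, which share groups and so mostly express the group means. For Cbln1 they were Stox2 (r = 0.984), Akap2 (0.972), Inha (0.972), Cyp11a1 (0.972) and Ndrg2 (0.971). Inha encodes the inhibin alpha subunit and averaged 1978.7 in XY DKO, 659.2 in XY Sox9KO and 2831.5 in XY control gonads. Cyp11a1, the first enzyme of steroid synthesis and a fetal Leydig cell marker, averaged 2665.1, 15.7 and 7901.5 in the same 3 groups. Both thus lay below the testis level in XY DKO gonads, as Cbln1 did.

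For Fabp3 they were Efhd2 (r = 0.959), Syne2 (0.949), Plce1 (0.933), Ky (0.927) and Ooep (0.923). For Nupr1 they were Gpm6a (0.912), Cryab (0.909), Tyrobp (0.904), Ctss (0.899) and Ky (0.888). Ky, named for the kyphoscoliosis mouse and needed in muscle, was the one gene in both sets, and averaged 438.2 in XY DKO, 26.6 in XY Sox9KO, 61.1 in XY control, 360.3 in XX DKO, 364.7 in XX Ctnnb1KO and 28.1 in XX control gonads. Cryab encodes a small heat shock protein of lens and muscle. Tyrobp, an adaptor of myeloid receptors, is on the macrophage list, and Ctss encodes a lysosomal protease abundant in macrophages. For Cnmd they were Sema3g (r = 0.943), Lgi2 (0.936), Scarb2 (0.929), Lrfn5 (0.929) and Pmepa1 (0.921).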

How the data were processed

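RNA of 31 pairs of fetal gonads was hybridised to single-colour arrays of 45101 probe sets. The deposited table gives the intensity of each probe set on a linear scale. Per the submitters' processing notes the authors used MAS5, of which the sources used here give neither version nor settings. Every array had a trimmed mean of 500.0. Genes were named by the platform annotation. Of the non-control probe sets, 34945 had 1 symbol, 932 several and 9160 none, and symbols were checked by Entrez identifier for 34741. Signals were taken as log2(signal + 16), and a gene was kept if 3 or more arrays read it above their own median signal.

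All arrays entered 1 limma fit (version 3.58.1, R 4.3.3) of 8 group means with eBayes and a trend, on 23 residual degrees of freedom. Benjamini-Hochberg adjustment ran over 11777 genes per comparison, with calls under 0.05; SE and intervals are limma's, SD is between arrays. Arrays were separate pairs of gonads, and their number limits the precision. The genes, the lists around them and the motifs were chosen with earlier results of these data known, so no p-value is independent of that choice; list genes were named by smallest adjusted p in XY control against XX control, with others added for contrast. XX Ctnnb1KO and XX DKO against XX control and XX DKO against XX Sox9KO chose the genes and are descriptions. XY DKO against XY Sox9KO may have had a part in choosing Cnmd. For Cnmd, that comparison, the interaction and the other XY DKO comparisons are descriptions too. The fit was tested on simulated data. Alternatives were other pseudocounts, quantile normalization, no filter, no trend, other probe sets, fewer arrays and the replicate number as a block.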

Additional observations from a re-analysis of the deposited data

Results flagged for a closer look

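Among 28 sets of 4 arrays, 1 gene in 1 group each, 4 held an array far from the others of its group, where chance gives about 1 in 20. Cbln1 read 1619.2 on replicate 1 of XX DKO, above the other 3, and 107.4 on replicate 3 of XY Sox9KO, below the other 3. Replicate 2 of XX Ctnnb1KO stood apart for Nupr1 at 1226.2 and for Cnmd at 422.2.

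In XY gonads the effect of Ctnnb1 loss differed by Sox9 status, by the limma interaction, for Cbln1 (3.91 ± 0.32 on the log2 scale, adjusted p = 4.86e-10), Fabp3 (2.06 ± 0.26, adjusted p = 1.41e-06) and Nupr1 (2.58 ± 0.48, adjusted p = 0.000327). For each gene, all 3 XY DKO arrays lay above all 4 XY Sox9KO arrays, while the XY Ctnnb1KO and XY control arrays overlapped. These p-values are not independent of the choice of the genes if XY DKO against XY Sox9KO had a part in it.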

How the results depend on the processing

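Of 686 recomputed values of the 4 genes in the tested comparisons, 685 kept their direction where called and their side of the threshold. The exception is Nupr1 in XY Sox9KO against XY control, called with its other probe set (-0.81) and not with the chosen one (-0.42). The second Fabp3 probe set failed the filter and gave no value. Counts of called genes changed in a few comparisons. XY Sox9KO against XX Sox9KO called 13 genes, 25 after quantile normalization, 7 with only the arrays of the comparison, 20 without XX Ctnnb1KO replicate 4, and 7 to 63 with 1 array left out. XY DKO against XY Sox9KO called 2572, 1705 with only its own arrays, and 1916 to 2834 with 1 array left out. With 1 array left out, XX Sox9KO against XX control called 0 to 1 and XY Ctnnb1KO against XY control 5 to 10. The causes were not tested. Deviations of same-numbered arrays had r from -0.303 to 0.223. In XY DKO against XY control all were positive, with a median of 0.196 against -0.134 for other numbers. In XY DKO against XY Sox9KO all were negative, with a median of -0.232 against 0.067. All were negative too in XY Sox9KO against XX Sox9KO, with a median of -0.192 against 0.087. The same held in XX Sox9KO against XX control, with -0.14 against 0.027. XX DKO with XX Ctnnb1KO was not checked, so this does not settle whether the numbers pair samples. With the replicate block XY Sox9KO against XX Sox9KO called 8 genes, XY control against XX control 4426 in place of 4453, and no call of the 4 genes changed. Cnmd's low groups sit near the pseudocount, so its fold changes there are the least certain in size. Arrays have no read depth, and with 3 or 4 arrays a group the intervals for Nupr1 in the testis comparisons reach beyond 1 on the log2 scale.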
